A study of Mus musculus with 5 samples.

Results

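The TNF superfamily pairs cytokines that sit on the cell surface or are shed from it with a family of receptors on neighbouring cells. The ligands act as trimers. Receptors with a death domain can recruit FADD or TRADD and caspase 8 and lead to apoptosis, whereas the other signaling receptors bind TRAF adaptors and activate NF-κB, a transcription factor family of which RelA and p50 form the canonical dimer and RelB and p52 the alternative one. A few members bind a ligand without signaling and are called decoys. In tissues, Tnf and the lymphotoxins come mainly from immune cells, while several receptors of the family are also carried by epithelial and stromal cells.

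Members were taken by symbol, as every gene of the count table named Tnfsf or Tnfrsf with a number, together with Tnf, Lta, Ltb, Ltbr, Fas, Fasl, Cd27, Cd70, Cd40 and Cd40lg. This gave 41 members, 17 ligands and 24 receptors, of 24527 genes. Bulk RNA-seq had been performed on prostate tissue of 3 castrated and 2 intact TripleTg mice, and the comparison asks how expression in tumor tissue differed after removal of the testes, the main source of androgen. All 5 mice carried hHGFtg, a human HGF transgene expressed throughout the body, and the alleles H11 hMET/+, Ctnnb1 L(Ex3)/+ and PB Cre4. Cre under the probasin promoter switched on human MET and a stabilized β-catenin in prostate epithelium. Castration was performed at 4 months of age, and tissue was taken from both groups at 8 months. Gene counts summed to 28015507, 18951782 and 20492061 in castrated mice 1, 2 and 3, and to 21560355 and 22853501 in intact mice 1 and 2.

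The labelled tissue was checked against luminal epithelial genes. Levels are given in CPM, the counts of a gene scaled to the total gene count of its library. Krt8, a luminal keratin, was the most abundant of 8 luminal markers at 895, 764 and 1146 CPM in the castrated mice and 1195 and 623 CPM in the intact mice. Pbsn, the secretory protein whose promoter drives Cre, stood at 0.464, 0 and 0.244 CPM in the castrated mice and at 0 and 4.90 CPM in the intact mice. Epithelial keratin was thus high in all 5 libraries, and the secretory product was at or near 0 in all but intact mouse 2.

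Of 13 marker lists of other cell types and epithelium, B cell, plasma cell, macrophage, smooth muscle and fibroblast sums were higher in every castrated than in either intact mouse, and the other 8 sums overlapped. Without Dcn, its most abundant gene, the fibroblast sum overlapped as well. The 6 B cell markers, of which Cd79a was the most abundant, summed to 10.9, 63.5 and 81.3 CPM in the castrated and 1.11 and 3.72 CPM in the intact mice, and Cr2 had no count in either intact mouse. The 10 macrophage markers, led by Lyz2, summed to 2736, 7320 and 3048 CPM in the castrated and 1176 and 1623 CPM in the intact mice. The 6 smooth muscle markers, led by Acta2, summed to 383, 660 and 606 CPM in the castrated and 205 and 130 CPM in the intact mice. Castrated mice 2 and 3 stood apart by fat cell markers. The 8 adipocyte markers, led by Fabp4, summed to 140, 759 and 704 CPM in the castrated and 142 and 148 CPM in the intact mice. Adipoq, which encodes the fat hormone adiponectin, was at 0.535, 67.7 and 68.4 CPM against 0 and 0.0875 CPM, and Lep and Cfd had no count in either intact mouse. Castrated mice 2 and 3 also held more of the B cell markers than castrated mouse 1. For some members, results are therefore also given with castrated mouse 1 as the only castrated sample. In bulk tissue, fewer cells of a type and less RNA per cell cannot be told apart, and the part of these cell types in the members' values was not tested.

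Of the 41 members, 38 had a CPM above 1 in at least 2 libraries and were tested among 14612 genes with edgeR's quasi-likelihood test. Castrated libraries alone carried Tnfrsf17 and Cd27 past this filter, and the other 36 members had a library above 1 CPM in both groups. A gene was called when its p, adjusted by the method of Benjamini and Hochberg, was under 0.05 and its log2 fold change was above 1 in size. No gene met both, so that 0 members and 0 of all genes tested (0%) were called. The smallest adjusted p of a member was 0.289. At an unadjusted p under 0.05, 8 of 38 members (21.1%) were counted, where 15.0% of all genes were. Each of these 8 also had an absolute log2 fold change above 1, a rule that 10.9% of all genes met. Of them, 6 were higher in castrated mice, where 7.66% of all genes were, and 2 were lower, where 3.26% of all genes were. One of the 6 was Tnfrsf17, which entered only through the castrated libraries and had no read in the intact mice. Among the 36 members that entered through both groups, 7 (19.4%) met the rule, 5 higher and 2 lower. At the adjusted threshold DESeq2 called 989 of 14612 genes, with 6 members among them, and limma voom called 0. The 6 were Ltb, Tnfrsf13b, Tnfrsf1b, Tnfsf12, Tnfsf13b and Tnfrsf17, the last of which entered only through the castrated libraries.

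For 10 of 38 members, or 26.3%, the castrated and intact values did not overlap, against 33.1% of all genes. The castrated mice lay above both intact mice for 8 members, or 21.1%, where 17.8% of all genes did. They lay below both for 2 members, or 5.26%, where 15.3% of all genes did. Tnfrsf17, which passed the filter through castrated libraries alone, is among the 8 and hence among the 10. The median log2 fold change was 0.69 over the tested members, 0.56 over the 36 that entered through both groups and -0.03 over all genes. Above 0 were 28 members, or 73.7%, where 47.9% of all genes were. Tnfrsf17 and Cd27 are among the 28. The extremes were unevenly spread over the mice. Castrated mouse 2 had the highest value for 15 members, 39.5% of those tested, where it had the highest value for 14.3% of all genes. Intact mouse 2 had the lowest value for 16 members, or 42.1%, against 32.2% of all genes. Intact mouse 1 had it for 15, or 39.5%, against 22.7%. A tie went to the first mouse in order, so Tnfrsf17, at 0 in both intact mice, is counted under intact mouse 1.

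**Figure D1:**
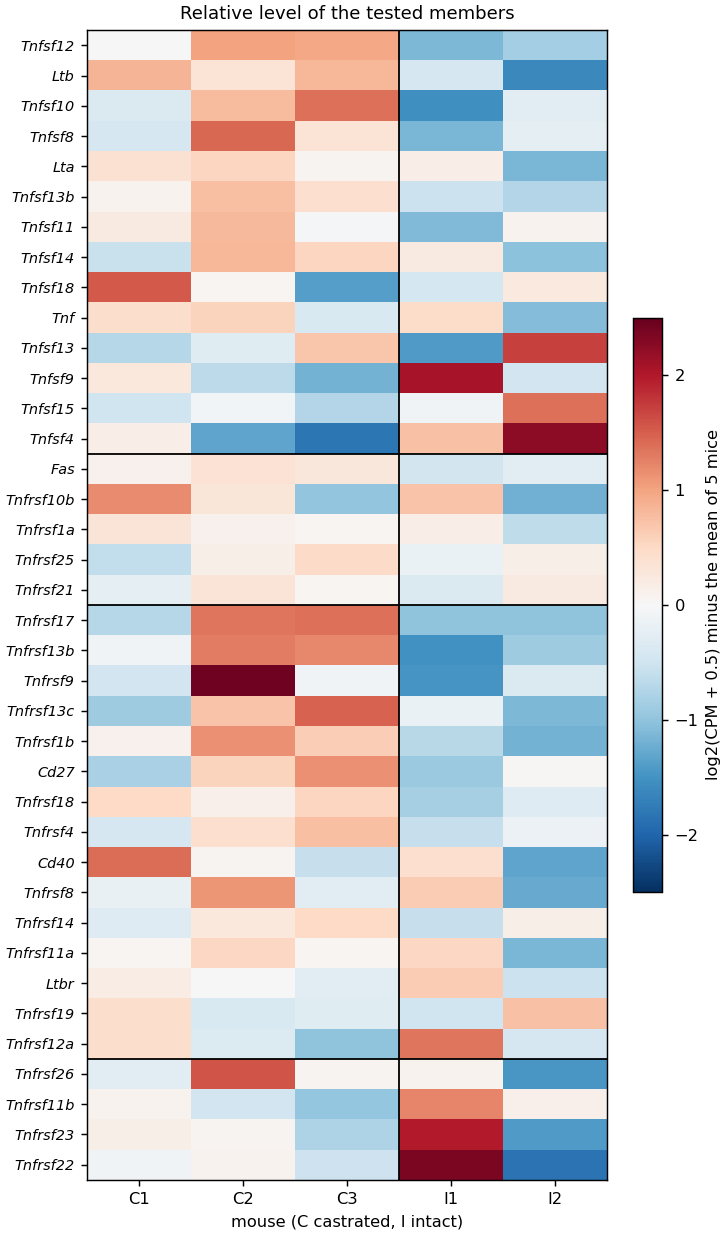
Relative level of the 38 tested members in each mouse, as log2(CPM + 0.5) minus the mean over the 5 mice, with colors ending at 2.5 in either direction. Lines separate ligands, death domain receptors, TRAF-binding receptors and decoy or other receptors from top to bottom, and castrated from intact mice; castrated mouse 2 is the highest for 15 members.

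Among ligands, lymphotoxin β, TWEAK and BAFF were higher in every castrated mouse than in either intact mouse, and OX40 ligand was lower. Of the 14 ligands tested, 3 were higher and 1 was lower at the unadjusted p and fold threshold, where 7.66% of all genes were higher and 3.26% lower, and their median log2 fold change was 0.90. Ltb (chr17:35194507-35196305, mm10) encodes the membrane anchor of the lymphotoxin heterotrimer. Once gene length was taken into account, it had the highest mean level of any ligand over all 5 mice, 29.5 ± 16.9 TPM (SD, n = 5). Over the intact mice alone, Tnfsf9 with a mean of 44.1 TPM and Tnf with 19.0 TPM lay above Ltb with 12.5 TPM. Tnfsf12 was above Ltb in castrated mice 2 and 3. Ltb was at 21.4, 14.9 and 21.2 CPM in the castrated mice and at 8.58 and 3.50 CPM in the intact mice. The lowest castrated mouse was well above the highest intact mouse. The log2 fold change was 1.67 (SE 0.45, unadjusted p = 0.0129, adjusted p = 0.290 by edgeR's quasi-likelihood test), and it was 2.38 without intact mouse 1 and 1.16 without intact mouse 2. With castrated mouse 1 as the only castrated sample it was 1.78.

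Tnf (chr17:35199367-35202007), the founding member of the family and a neighbor of Ltb and Lta, had overlapping groups. Its CPM was 20.4, 22.1 and 11.3 in the castrated mice and 20.7 and 6.74 in the intact mice. Intact mouse 1 lay within the castrated range and intact mouse 2 below it. The log2 fold change was 0.39 (SE 0.55, unadjusted p = 0.503), and without intact mouse 2 it turned to -0.21. Lta, which encodes the soluble lymphotoxin α, was scarce at 0.976 to 1.53 CPM in the castrated mice and at 1.07 and 0.131 CPM in the intact mice.

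Both loci hold NF-κB motif letters in front of their start sites. Promoter sequence was available from RefSeq (GRCm38.p6) for 31 of the 41 members, and the 250 bases before each start were searched on both strands for a κB motif (GGGA or GGGG, then 4 bases of any kind, then CC) and for an ETS motif (AGGAAGT), and on the gene's strand for TATAAA as a TATA box. A κB match was present in 14 of 31 members, or 45.2%, and in 28.4% of 32851 promoters of the same length. An ETS match was present in 4 members, against 7.69% of all promoters, and a TATA match in 4, against 7.59%. The AP-1 motif TGANTCA was in 4 members (6.75% of all promoters) and the octamer ATGCAAAT in 0 (1.60% of all promoters), both strands searched. The promoters of Tnf and Ltb are shown because both of these neighboring genes carried a κB match, while the groups were separate for Ltb and overlapped for Tnf. Capitals mark the matches, which for Tnf are in order κB, ETS and TATA (minus strand, chr17:35202008-35202257) and for Ltb a single κB match (plus strand, chr17:35194257-35194438, with the 68 bases next to the start site left out, which hold further, overlapping κB matches).
Tnf: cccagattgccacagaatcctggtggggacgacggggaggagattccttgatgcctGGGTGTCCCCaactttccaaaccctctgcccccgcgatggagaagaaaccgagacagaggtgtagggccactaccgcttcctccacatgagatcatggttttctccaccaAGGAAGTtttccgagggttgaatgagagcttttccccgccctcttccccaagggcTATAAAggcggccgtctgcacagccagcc
Ltb: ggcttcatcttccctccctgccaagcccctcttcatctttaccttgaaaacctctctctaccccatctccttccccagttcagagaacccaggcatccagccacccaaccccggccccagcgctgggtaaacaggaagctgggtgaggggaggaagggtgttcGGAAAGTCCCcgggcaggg
The κB match of Tnf begins 194 bases and its TATA match 29 bases before the start, and the printed κB match of Ltb begins 87 bases before it. A match is a description of these letters and not of a bound site.

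Tnfsf12 (chr11:69686240-69696098) encodes TWEAK, a ligand linked to tissue repair and fibrosis. It was at 16.9, 34.2 and 33.5 CPM in the castrated mice and at 7.42 and 9.14 CPM in the intact mice. Castrated mice 2 and 3 were alike and castrated mouse 1 lay between them and the intact mice. Castrated over intact, this gave a log2 fold change of 1.74 (SE 0.43, unadjusted p = 0.00882, adjusted p = 0.290), and it was 0.97 with castrated mouse 1 as the only castrated sample. The gene shares its whole span with the readthrough gene Tnfsfm13, which was counted separately. Tnfsfm13 had 25, 32 and 41 reads in the castrated and 17 and 42 reads in the intact mice. Reads that fit both genes are not known from these counts, so the count of Tnfsf12 is uncertain by an unknown amount.

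Tnfsf13b (chr8:10006467-10035999) encodes BAFF, the survival factor of B cells, which is made largely by myeloid and stromal cells. It was at 14.5, 23.5 and 18.6 CPM in the castrated mice and at 9.28 and 8.10 CPM in the intact mice. The groups did not overlap. For BAFF the log2 fold change was 1.10 (SE 0.33, unadjusted p = 0.0189, adjusted p = 0.297), and 0.69 with castrated mouse 1 as the only castrated sample. Tnfsf13, which encodes the related ligand APRIL, was at 1.14 to 3.85 CPM in the castrated mice and at 0.510 and 8.31 CPM in the intact mice. Intact mouse 2 was the highest and intact mouse 1 the lowest of all 5 mice for APRIL, whose gene also lies within Tnfsfm13.

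Tnfsf4 (chr1:161395438-161418206) encodes OX40 ligand, a costimulator of T cells. It was the ligand with the largest difference in the opposite direction, at 2.21, 0.475 and 0.195 CPM in the castrated mice and 3.52 and 10.9 CPM in the intact mice. The groups did not overlap, but the values spread widely within each of them. Its log2 fold change was -2.94 (SE 1.06, unadjusted p = 0.0370, adjusted p = 0.316), and it was -4.46 without castrated mouse 1, -3.55 without intact mouse 1 and -1.85 without intact mouse 2. With castrated mouse 1 as the only castrated sample it was -1.79.

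The other ligands overlapped between groups. Tnfsf10, which encodes the death ligand TRAIL, was at 28.8, 64.3 and 97.8 CPM in the castrated mice and 12.5 and 30.8 CPM in the intact mice, so that castrated mouse 1 fell just below intact mouse 2. Tnfsf9, which encodes the 4-1BB ligand, was at 3.76 to 11.2 CPM in the castrated mice and at 40.1 and 6.43 CPM in the intact mice, and it overlaps an antisense gene, Gm11110. Intact mouse 1 alone was high for it. Tnfsf8, the CD30 ligand, was at 3.53 to 14.1 CPM in castrated and 1.95 and 4.07 CPM in intact mice, and Tnfsf11, which encodes RANKL, the driver of osteoclast formation, at 1.51 to 3.11 CPM and at 0.464 and 1.71 CPM. Tnfsf14 (LIGHT) was at 0.857 to 3.06 CPM in the castrated and 1.855 and 0.481 CPM in the intact mice. Tnfsf15 (TL1A) was at 0.607, 1.003 and 0.439 CPM and at 0.974 and 3.59 CPM, so that castrated mouse 2 fell just above intact mouse 1. Tnfsf18 (GITR ligand) spread widely in the castrated mice, at 4.03, 1.11 and 0.0976 CPM, against 0.649 and 1.36 CPM in the intact mice. Fasl, Cd70 and Cd40lg were too low for the test. Fasl reached 0.875 CPM at most and Cd40lg 1.02 CPM, and Cd70 had at most 1 read in any library, where 3 counts correspond to between 0.107 and 0.158 CPM.

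**Figure D2:**
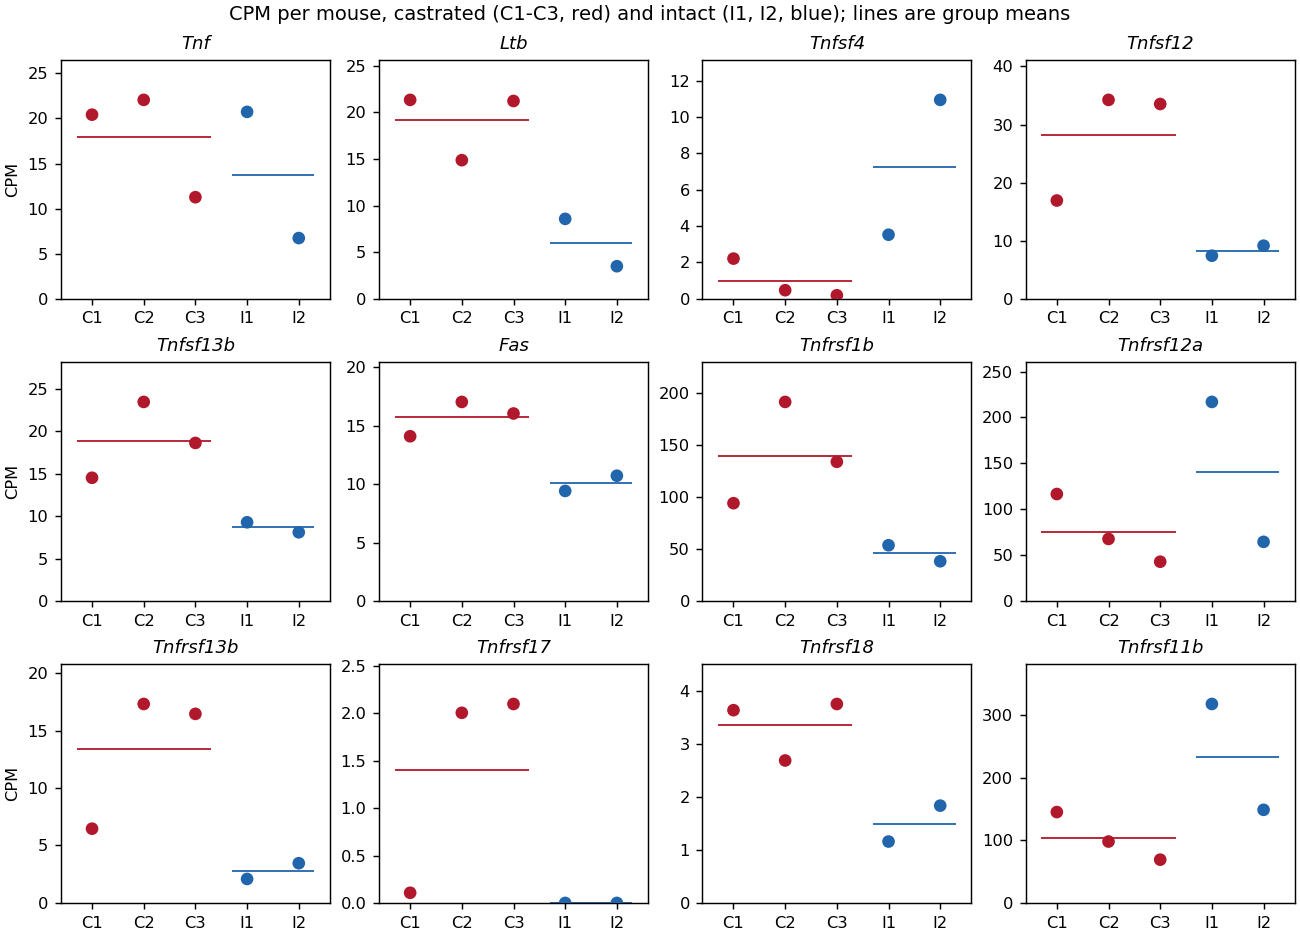
CPM in each mouse, on linear axes that start at 0, for Tnf and for the 11 other members given in every mouse, with castrated mice in red and intact mice in blue; horizontal lines are group means. The groups are separate for 10 of the 12 genes and overlap for Tnf and Tnfrsf12a. Tnfrsf17 is among the 10, but castrated mouse 1 had only 3 reads of it, the limit used here.

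Of the 5 death domain receptors, 0 passed the unadjusted p and fold threshold, which 10.9% of all genes did, and 1, Fas, had groups that did not overlap, as 33.1% of all genes had. Fas (chr19:34290659-34327770), which triggers apoptosis when bound by Fas ligand, was at 14.1, 17.0 and 16.1 CPM in the castrated mice and at 9.41 and 10.7 CPM in the intact mice. Its groups did not overlap and each was tight, with a log2 fold change of 0.62 (SE 0.29, unadjusted p = 0.0811, adjusted p = 0.376). Fasl itself overlapped at 0.39 to 0.528 CPM in the castrated and 0.139 and 0.875 CPM in the intact mice. Tnfrsf1a, the main receptor for soluble TNF, was abundant throughout at 176 to 214 CPM in the castrated mice and 192 and 109 CPM in the intact mice. Tnfrsf10b, the TRAIL receptor of the mouse, was at 11.1 to 52.0 CPM in the castrated and 37.7 and 9.58 CPM in the intact mice. Tnfrsf21 (DR6) was at 67.5 to 109 CPM and Tnfrsf25 (DR3) at 0.785 to 2.25 CPM over all 5 mice. Apart from Fas, the death domain receptors overlapped between groups, and the median log2 fold change of all 5 was 0.34.

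Of the 15 TRAF-binding receptors, 13 entered the test through both groups. Of these 13, Tnfrsf1b and Tnfrsf13b were higher in castrated mice at the unadjusted p and fold threshold, where 7.66% of all genes were, and 0 were lower. The median log2 fold change of the 13 was 0.77. Tnfrsf1b (chr4:145212368-145246870) encodes TNFR2, the TNF receptor without a death domain, which is found mostly on immune and endothelial cells. It was at 94.0, 191 and 134 CPM in the castrated mice and at 53.5 and 38.1 CPM in the intact mice. Every castrated mouse was well above both intact mice. The log2 fold change was 1.60 (SE 0.37, unadjusted p = 0.00662), with an adjusted p of 0.289, the smallest of any member. With castrated mouse 1 as the only castrated sample it was 0.99. The macrophage sum given above was also higher in every castrated mouse, as were the B cell, plasma cell, smooth muscle and fibroblast sums. The endothelial sum overlapped, at 404, 282 and 330 CPM in the castrated and 448 and 168 CPM in the intact mice. The part of these cell types in the value of Tnfrsf1b was not tested.

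Tnfrsf13b (chr11:61126755-61149609) encodes TACI, which binds BAFF and APRIL and is carried by B cells and plasma cells. It was at 6.46, 17.3 and 16.4 CPM in the castrated mice and at 2.09 and 3.46 CPM in the intact mice. The groups did not overlap, and castrated mouse 1 was nearer to the intact mice than to the other two castrated mice. TACI had a log2 fold change of 2.24 (SE 0.62, unadjusted p = 0.0135, adjusted p = 0.290), and 1.15 with castrated mouse 1 as the only castrated sample. Its promoter is shown because a κB match, 62 to 52 bases before the start, directly adjoins an ETS match, 51 to 45 bases before it (plus strand, chr11:61126505-61126754). The capitals mark both matches as 1 run.
Tnfrsf13b: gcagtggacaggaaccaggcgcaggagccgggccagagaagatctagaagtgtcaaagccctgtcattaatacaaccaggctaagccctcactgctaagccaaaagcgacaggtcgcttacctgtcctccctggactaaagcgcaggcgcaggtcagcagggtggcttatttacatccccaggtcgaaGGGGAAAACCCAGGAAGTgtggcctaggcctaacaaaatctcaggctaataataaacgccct
None of the motifs searched was found in this window of Tnfsf13b or Tnfrsf1b, which says only that these letters are not in those bases.

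Tnfrsf17 (chr16:11313809-11320068) encodes BCMA, the BAFF and APRIL receptor of plasma cells. It had 3, 38 and 43 reads in castrated mice 1, 2 and 3 and no read in either intact mouse. Castrated mouse 1, at the 3 counts taken as the limit, could thus not be told from the intact mice. Castrated mice 2 and 3 were alike at 2.01 and 2.10 CPM. The mean of 1.40 CPM in the castrated mice was at least 10.4-fold higher than the mean limit of 0.135 CPM that 3 counts set per intact library. Its p is not given, since the gene entered the test only through castrated mice 2 and 3, and without either of them it did not enter. Tnfrsf13c, which encodes the BAFF receptor proper, was at 0.5, 2.53 and 4.64 CPM in the castrated and 1.16 and 0.350 CPM in the intact mice, and the groups overlapped.

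The ligand BAFF and its receptors were read beside lymphoid markers, which the BAFF receptor did not follow in every mouse. Tnfrsf13c was at 0.5 CPM in castrated mouse 1 and 1.16 CPM in intact mouse 1, where the B cell sum was 10.9 and 1.11 CPM. The 6 B cell markers were each higher in every castrated mouse than in either intact mouse. Of 6 plasma cell markers, Ighm and Igkc were not analysed here, and the other 4 were led by Sdc1, which epithelial cells also express. Without Sdc1, the plasma cell markers summed to 329, 1507 and 1243 CPM in the castrated and 58.9 and 20.1 CPM in the intact mice. Jchain made up most of this sum, at 326, 1493 and 1227 CPM in the castrated and 58.2 and 17.6 CPM in the intact mice. Mzb1 was also higher in every castrated than in either intact mouse, and Derl3 overlapped. The 7 T cell markers counted, led by Cd4, summed to 20.4, 56.0 and 58.6 CPM in the castrated and 13.6 and 37.9 CPM in the intact mice, with overlap. Castrated mice 2 and 3 were the highest for TACI, BCMA, the BAFF receptor and both lymphoid sums. The part of these cell types in the values of TACI, BCMA and the BAFF receptor was not tested.

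**Figure D3:**
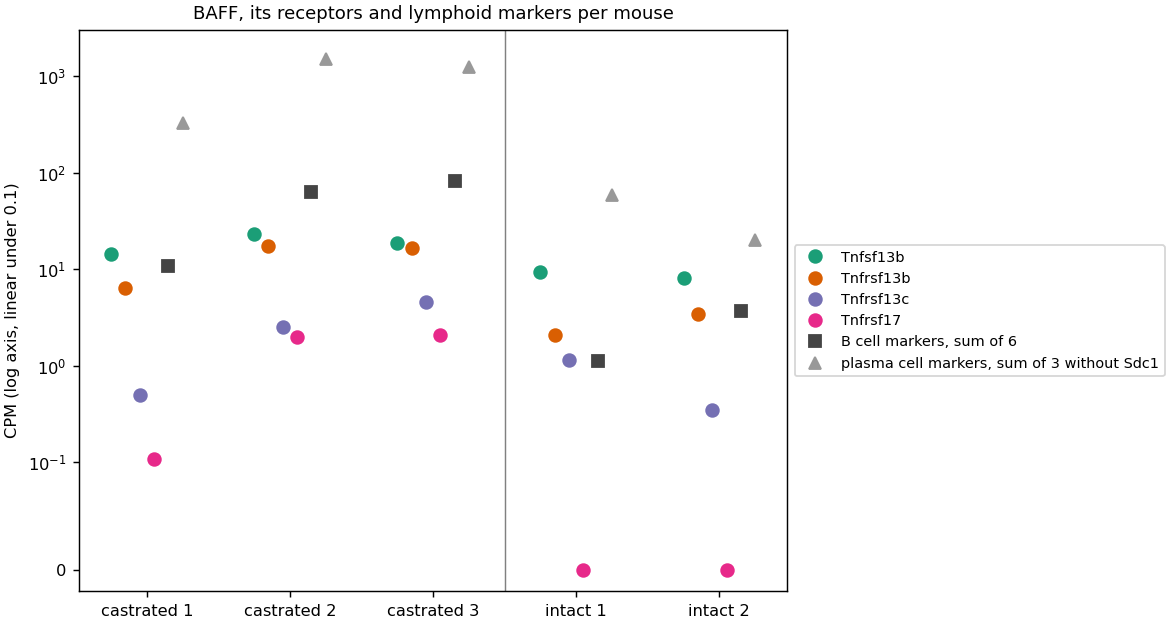
CPM in each mouse for BAFF (Tnfsf13b), its 3 receptors and the summed B cell and plasma cell markers, on a log axis that is linear under 0.1 CPM; points are shifted sideways for visibility. All series but Tnfrsf13c and Tnfrsf17 are higher in each castrated mouse than in both intact mice. Tnfrsf17 has 0 CPM in both intact mice and only 3 reads, the limit used here, in castrated mouse 1.

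Tnfrsf18 (chr4:156026322-156028894) encodes GITR, a receptor of regulatory and activated T cells. It was at 3.64, 2.69 and 3.76 CPM in the castrated mice and at 1.16 and 1.84 CPM in the intact mice. The groups did not overlap, and the log2 fold change was 1.12 (SE 0.49, unadjusted p = 0.0659, adjusted p = 0.355). The other T cell receptors of the family overlapped. Tnfrsf9 (4-1BB) was at 4.43, 36.2 and 5.91 CPM in the castrated and 1.95 and 4.81 CPM in the intact mice, high in castrated mouse 2 alone. Tnfrsf4 (OX40) was at 0.785 to 2.39 CPM in castrated and 0.649 and 1.05 CPM in intact mice, Cd27 at 0.250 to 2.39 CPM and 0.185 and 0.831 CPM, and Tnfrsf8 (CD30) at 1.17 to 3.90 CPM and 2.69 and 0.350 CPM.

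The remaining TRAF-binding receptors included the member with the highest mean level over all 5 mice. This was Tnfrsf12a (chr17:23675445-23677449), which encodes Fn14, the receptor of TWEAK, at 244 ± 178 TPM (SD, n = 5). Its mean was 335 TPM over the intact and 183 TPM over the castrated mice, where Tnfrsf1a was higher at 208 TPM. Tnfrsf12a was at 116, 67.5 and 42.7 CPM in the castrated mice and at 217 and 64.4 CPM in the intact mice. The groups overlapped, with a log2 fold change of -0.89 (SE 0.60, unadjusted p = 0.193), and without intact mouse 1 the value was 0.16. The end of the gene shares 80 bases with the antisense gene Hcfc1r1. Ltbr, the lymphotoxin β receptor, was at 71.7 to 100 CPM in the castrated and 137 and 60.6 CPM in the intact mice. Tnfrsf19 (TROY), known as a Wnt target in epithelial stem cells, was at 138 to 244 CPM and at 128 and 300 CPM. Tnfrsf11a (RANK) was at 44.4 to 62.2 CPM and at 61.8 and 19.2 CPM, Cd40 at 6.59 to 27.6 CPM and at 13.8 and 3.76 CPM, and Tnfrsf14 (HVEM) at 3.14 to 6.0 CPM and at 2.55 and 4.59 CPM. All of these overlapped between groups, and for Fn14 and the lymphotoxin β receptor intact mouse 1 was the highest.

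Of the 4 decoy or other receptors, Tnfrsf11b was lower in castrated mice. Tnfrsf11b (chr15:54250619-54278484) encodes osteoprotegerin, the soluble decoy for RANKL that also binds TRAIL. It was at 145, 98.1 and 69.2 CPM in the castrated mice and at 318 and 149 CPM in the intact mice. The groups did not overlap, but castrated mouse 1 and intact mouse 2 were nearly level. Osteoprotegerin had a log2 fold change of -1.17 (SE 0.41, unadjusted p = 0.0347, adjusted p = 0.316), and it was -0.59 without intact mouse 1. With castrated mouse 1 as the only castrated sample it was -0.72. Tnfrsf22, Tnfrsf23 and Tnfrsf26 are closely related genes in 1 cluster on chromosome 7, so reads may be shared among them and their values are uncertain, and Tnfrsf22 and Tnfrsf23 also overlap the antisense gene E230032D23Rik. Tnfrsf22 was at 12.4 to 19.1 CPM and Tnfrsf23 at 19.8 to 37.5 CPM in the castrated mice. In the intact mice Tnfrsf22 was at 94.1 and 4.64 CPM and Tnfrsf23 at 135 and 12.5 CPM, so that the intact mice held both the highest and the lowest value of each. Tnfrsf26 was at 9.74 to 36.1 CPM in the castrated and 12.4 and 3.94 CPM in the intact mice.

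**Figure D4:**
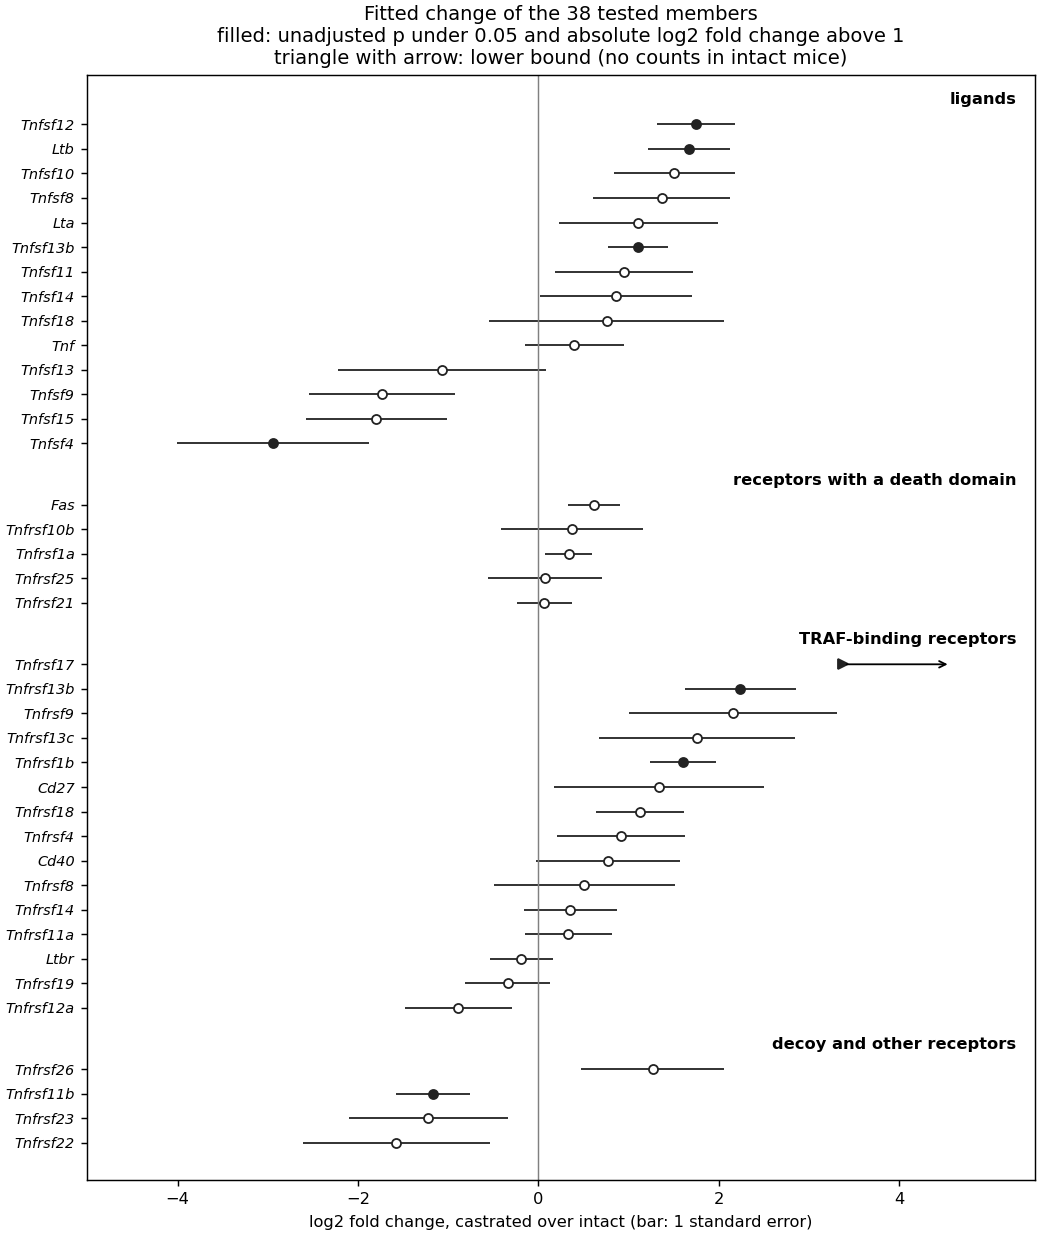
Fitted log2 fold change of castrated over intact mice for the 38 tested members by role, with bars of 1 standard error; filled points passed an unadjusted p under 0.05 with an absolute log2 fold change above 1. Tnfrsf17 is drawn as a lower bound because it had no read in the intact mice. To the right of 0 lie 28 members, with Tnfrsf17 and Cd27 among them.

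Levels were also summed over each side of the family, per gene length. Summed over the 17 ligands, levels were 168, 219 and 204 TPM in the castrated mice and 169 and 88.9 TPM in the intact mice. Summed over the 24 receptors, they were 1129, 1042 and 776 TPM in the castrated mice and 1580 and 655 TPM in the intact mice. Both sums overlapped between groups, and the receptor sum was highest in intact mouse 1 and lowest in intact mouse 2.

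Ratios of ligand to receptor TPM within each mouse were compared for 23 known pairs with a value in every mouse. The ratio of Ltb to Ltbr was 0.408, 0.325 and 0.568 in the castrated mice and 0.120 and 0.111 in the intact mice. That of Tnfsf11 to its decoy Tnfrsf11b was 0.0167, 0.0400 and 0.0276 in the castrated mice and 0.00184 and 0.0145 in the intact mice. For these pairs and for Tnfsf12 to Tnfrsf12a, whose lowest castrated ratio of 0.0828 nearly met the highest intact ratio of 0.0809, every castrated mouse was above both intact mice. For 4 pairs every castrated mouse was below both intact mice, so that 7 of 23 pairs did not overlap, while the levels of 33.1% of all genes did not. The ratio of BAFF to TACI was 3.43, 2.07 and 1.73 in the castrated mice and 6.78 and 3.57 in the intact mice, and that of OX40 ligand to OX40 was 2.01, 0.189 and 0.0584 against 3.88 and 7.45. The other two were APRIL to TACI and TL1A to DR3, where the nearest castrated and intact ratios were 0.397 and 0.414 for the first and 0.253 and 0.255 for the second. The remaining 16 pairs overlapped. With 3 mice against 2 there are 10 ways to divide the samples, so an exact permutation test of a single ratio cannot reach a p under 0.05, and these ratios were not tested.

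Behind the receptors, 60 genes of the pathway were read from lists set by role. By edgeR's quasi-likelihood test 0 of them were called at the adjusted threshold and 6, or 10%, had an unadjusted p under 0.05, where 15.0% of all genes did. Of these 6, 4 also had an absolute log2 fold change above 1, all higher in castrated mice. The other two were Tnip1 and Ikbkb. Ikbkb, a kinase that releases NF-κB from its inhibitors, was at 113, 87.7 and 95.3 CPM in the castrated mice and 173 and 140 CPM in the intact mice, with an unadjusted p of 0.0123. Every castrated mouse was thus below both intact mice for Ikbkb. DESeq2 called 1, Traf5, at the adjusted threshold. Among the 40 genes of the adaptor, NF-κB and cell death lists, 1 passed the unadjusted p and fold threshold, or 2.5%, against 10.9% of all genes, and the median log2 fold change was 0.06. That gene was Traf5, an adaptor of TRAF-binding receptors such as CD27 and OX40, at 8.17, 13.0 and 12.6 CPM in the castrated mice and 3.71 and 3.41 CPM in the intact mice. Its groups were far apart, with a log2 fold change of 1.64 (SE 0.39, unadjusted p = 0.00708, adjusted p = 0.289). With the replicate number as a block its unadjusted p was 0.0553.

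The NF-κB list of subunits, inhibitors and regulators held 12 genes, and all 12 had a log2 fold change above 0, between 0.01 and 0.56. None passed the unadjusted p and fold threshold, and for 10 of the 12 the groups overlapped. Of all genes, 47.9% had a log2 fold change above 0 and 33.1% had groups that did not overlap. Nfkb2, the precursor of p52, was at 49.4, 62.8 and 66.7 CPM in the castrated and 47.7 and 46.0 CPM in the intact mice, and Tnip1, an inhibitor of the pathway, at 72.6, 70.2 and 80.2 CPM and at 60.1 and 40.2 CPM. Of 8 cell death genes, 0 passed the unadjusted p and fold threshold, which 10.9% of all genes did, and their median log2 fold change was -0.02. Caspase 8, the initiator caspase of death receptors, was at 87.6 to 110 CPM in the castrated mice and 123 and 57.4 CPM in the intact mice.

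Among 14 genes known to be induced by NF-κB, 2 were higher in castrated mice at the unadjusted p and fold threshold, where 7.66% of all genes were. Mmp9, a gelatinase, was at 41.2, 133 and 34.9 CPM in the castrated mice and 20.0 and 17.2 CPM in the intact mice, with a log2 fold change of 1.90 (SE 0.69, unadjusted p = 0.0369, adjusted p = 0.316), which was 1.01 without castrated mouse 2. Ccl2, a chemokine for monocytes, was at 21.1, 21.5 and 12.2 CPM in the castrated mice and 8.39 and 3.02 CPM in the intact mice, with a log2 fold change of 1.69 (SE 0.54, unadjusted p = 0.0236, adjusted p = 0.301), which was 2.53 without intact mouse 1 and 1.13 without intact mouse 2. With a mouse left out, Ccl2 passed the unadjusted rule in 2 of 5 fits and Mmp9 in 3 of 5. Ptgs2, which encodes cyclooxygenase 2, lay in the opposite direction at 23.2, 25.9 and 8.15 CPM in the castrated and 36.9 and 56.2 CPM in the intact mice, with an unadjusted p of 0.0552. Of the 14 genes, 4 were higher in every castrated than in either intact mouse (Mmp9, Ccl2, Icam1 and Bcl2a1b), where 17.8% of all genes were, and 1, Ptgs2, was lower, where 15.3% of all genes were. Mmp9 was highest in castrated mouse 2, as were the macrophage and adipocyte sums. It was lower in castrated mouse 3 than in castrated mouse 1, while the macrophage sum was higher in castrated mouse 3. The part of these cell types in the value of Mmp9 was not tested. A last list held 6 genes, namely family members under other symbols and the adaptor Edaradd. Eda, the ectodysplasin ligand, was at 4.68, 4.17 and 6.73 CPM in the castrated and 2.92 and 1.49 CPM in the intact mice, with a log2 fold change of 1.23 (SE 0.49, unadjusted p = 0.0497, adjusted p = 0.333). It passed the unadjusted rule in 1 of 9 other fits and in 1 of 5 with a mouse left out. Its receptor Edar and the adaptor Edaradd overlapped, as did Ngfr, the neurotrophin receptor, at 623, 202 and 93.8 CPM in the castrated and 651 and 21.2 CPM in the intact mice. Eda2r overlapped as well, while Relt was higher in the castrated mice by a margin of 3.712 against 3.711 CPM at the nearest values.

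The counts of members depended on single mice. Without castrated mouse 2, 4 of 35 members (11.4%) passed the unadjusted p and fold threshold, where 6.22% of all genes did, and without castrated mouse 3, 4 of 36 (11.1%), where 6.09% did. These were in both cases Ltb, Tnfrsf13b, Tnfrsf1b and Tnfsf12, so that both lower members were lost. Without intact mouse 2, 12 of 37 members (32.4%) passed, where 10.3% of all genes did, but Tnfsf4, Tnfsf13b and Tnfrsf17 were not among them. Without intact mouse 1, 9 of 38 (23.7%) passed, where 17.8% of all genes did, and Tnfrsf13b, Tnfrsf17 and Tnfrsf11b were not among them. With castrated mouse 1 as the only castrated sample 0 members passed, where 1.86% of all genes did, and all 11 of the named members that could be fitted kept the direction of their log2 fold change.

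**Figure D5:**
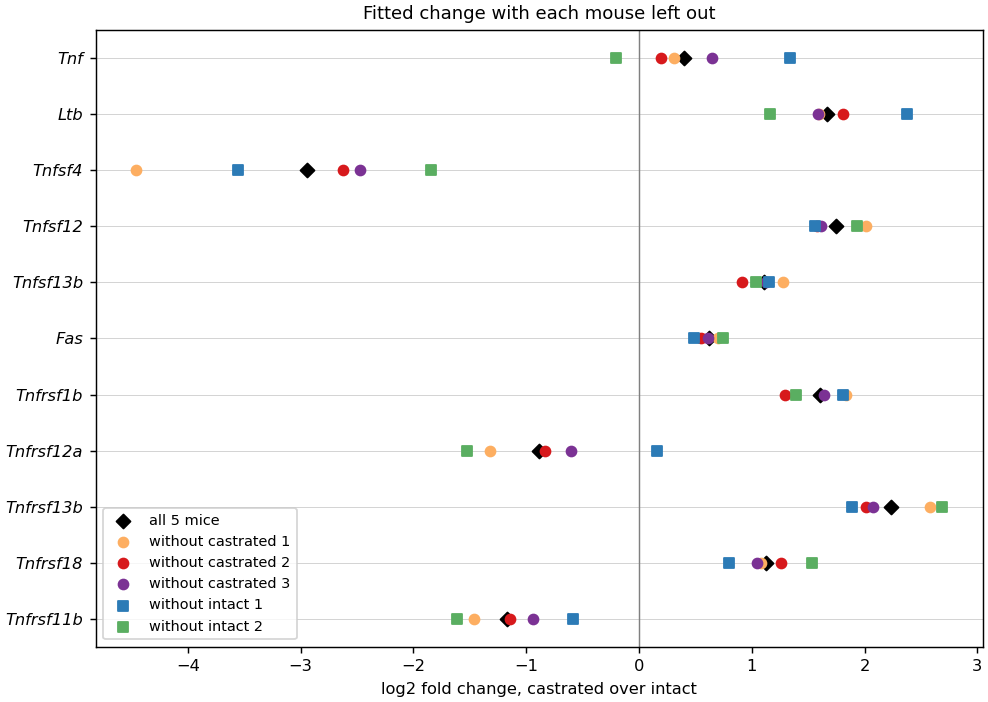
Fitted log2 fold change of castrated over intact mice for 11 named members with all 5 mice (diamonds) and with each mouse left out in turn (circles for castrated, squares for intact mice). Tnf and Tnfrsf12a cross 0, at -0.21 without intact mouse 2 and 0.16 without intact mouse 1, and the other 9 members stay on 1 side.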

How the data were processed

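Bulk RNA-seq of prostate tissue from 3 castrated and 2 intact mice, each a separate animal, was analyzed, and groups were taken from the sample labels. Per the labels and the study's methods, the authors made ribosomal RNA-depleted libraries from total RNA, trimmed reads (Trimmomatic 0.39), aligned them (STAR 2.7.9, build mm10) and counted reads per gene with HTSeq 2.0.2. The deposited values are unnormalized counts. Whether counting used strand is not given in the sources used here, which leaves genes that overlap or lie antisense uncertain. The deposited table also holds coordinates and a gene length in kilobases that was used only for TPM.

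Counts were tested with edgeR 4.0.16 in R 4.3.3 by the quasi-likelihood F-test with TMM factors, which ran from 0.944 to 1.036. The test took genes above 1 CPM in 2 or more samples, p-values were adjusted by Benjamini-Hochberg over all of them, and a call needed an adjusted p under 0.05 and a log2 fold change above 1 in size. The study's methods name TPM as input, and counts were used here. The common dispersion between mice was 0.238. Alternatives were other scalings and filters, limma 3.58.1 voom, DESeq2 1.42.0, a replicate block, leaving out each mouse and, chosen after seeing the data, edgeR's older quasi-likelihood fit and castrated replicate 1 alone against intact mice. The procedure was tested on simulated data. Members, gene lists, markers and the tests were chosen with earlier results of these data known. Values in every mouse are given for members past the unadjusted p and fold threshold, members whose groups do not overlap, the ligand and the receptor with the highest mean TPM, and Tnf, and for pathway genes past the same threshold. Other genes with values were chosen after their values were seen. Limits from 3 counts cover counting error only. One of the luminal markers is not reported here.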

Additional observations from a re-analysis of the deposited data

How the results depend on the processing

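No member called by DESeq2 was called by another alternative, and the direction of the member median, 0.27 to 0.94, held in every alternative. DESeq2 called 989 of 14612 genes at the adjusted threshold, among them 6 members and 1 pathway gene. Ltb, Tnfrsf13b, Tnfrsf1b, Tnfsf12 and Tnfsf13b had a DESeq2 adjusted p from 0.00758 to 0.0384. The remaining member was Tnfrsf17, which entered only through the castrated libraries. DESeq2 put 8 of 60 pathway genes past the unadjusted p and fold threshold, where it put 14.2% of all genes. Leaving out each mouse gave 0 to 1 genes at the adjusted threshold (Coch, without intact replicate 1) and 867 to 2570 genes, 4 to 12 members and 2 to 9 pathway genes at the unadjusted one. Castrated replicate 1 alone against the intact mice, with its spread assumed to be that of the intact mice, gave 257 genes, 0 members, hence 0 higher, and 0 pathway genes. With each mouse left out, the log2 fold change of Tnf ran from -0.21 (without intact replicate 2) to 1.34, and that of Tnfrsf12a from -1.52 to 0.16 (without intact replicate 1); the cause was not tested. Directions of the other named members and of the 4 pathway genes held in every alternative that could be fitted. The replicate block lowered the count of all genes from 1596 to 975 and that of members from 8 to 7, all higher in castrated mice. Under the block Tnfsf13b and both lower members, Tnfsf4 and Tnfrsf11b, no longer passed and Tnfrsf9 and Tnfsf10 did, and of the pathway genes Traf5 (unadjusted p = 0.0553) and Eda no longer passed and Eda2r and Il1b did. Same-numbered mice are different animals, and the correlation of their deviations was 0.15 for replicate 1 and -0.05 for replicate 2. The other alternatives kept the counts of members within 1.5 times.

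With 2 intact mice that differ widely, a difference within this spread was not detectable, and members at or under about 0.15 CPM, the level of 3 counts, carry little information.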
